A study of Mus musculus with 5 samples.

Results

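The lymphoid cells of depilated mouse skin were set against those of undepilated skin in single-cell RNA sequencing of CD45+ leukocytes from the dermis. The 2 libraries are labelled P50_Depil5D and P50, 1 library each. A barcode was kept when 200 or more genes were detected in it, mitochondrial genes took no more than 10% of its UMIs (unique molecular identifiers, 1 per captured transcript), and no other library listed it. A kept cell counted as lymphoid when it held at least 1 UMI of the T cell receptor chains Cd3d, Cd3e and Cd3g together, or at least 1 of the natural killer receptors Ncr1 and Klre1. Its Krt5 and Krt14 UMIs had to be under 10 and its C1qa, C1qb and C1qc UMIs 0, which leaves out keratinocytes and most macrophages. The rule found 1339 lymphoid cells among 2577 kept cells of the pair, 700 in P50_Depil5D and 639 in P50. The 5 libraries of the series held 6223 barcodes in all.

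Both libraries came from C57BL/6 mice, from dissected and digested dermis in which living CD45+ cells had been sorted, and both were made with the 10x Genomics droplet method, which reads the 3′ ends of transcripts. No genotype, allele or agent is given for either. P50 was read as skin of postnatal day 50, one of the times in the resting phase of the hair cycle (telogen) that the series follows. P50_Depil5D was read as skin whose hair had been removed 5 days before. The labels spell out neither reading, and they do not say whether depilation or collection fell at P50, how many mice were used, or whether mice were pooled. Libraries labelled P45, P63 and P80, from undepilated skin of other ages, served as further levels beside the pair.

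Pulling out resting hairs is a known stimulus that starts a new growth phase of the follicle, and it also wounds the follicle epithelium. The lymphocytes of mouse skin include dendritic epidermal T cells (DETC), which carry an invariant γδ receptor and patrol the epidermis. They also include dermal γδ T cells that make interleukin-17, regulatory T cells, which sit near follicles and have been tied to follicle regeneration, CD8 and conventional CD4 T cells, natural killer (NK) cells and innate lymphoid cells (ILC). DETC are known to answer damage to keratinocytes with growth factors and cytokines.

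The files held 7491878 UMIs in the deepest library, P45, and 1032621 in the shallowest, P80. P50 held 3242291 UMIs and P50_Depil5D 3290482. Lymphoid cells had median UMIs of 1304 in P50_Depil5D and 1197 in P50, and together 1072589 and 992942 UMIs. Median detected genes were 647 and 625, and median mitochondrial UMIs 2.76% and 2.61%, so the pair was close in depth. Of the barcodes, 174 occurred in both libraries of the pair, and P50, P63, P80 and P50_Depil5D shared 134 to 193 in each pairing, whereas P45 shared at most 7 with any other. Removing barcodes found in another library took out 180 cells of P50_Depil5D and 199 of P50 that met the other limits. Keeping them left 20 genes higher and 17 lower past the 1.5-fold difference described further on, against 21 and 21. With 1 library per group nothing could be tested between conditions. All intervals are exact 95% intervals of counting error (Clopper-Pearson for shares, Poisson for levels, conditional for ratios), and none covers the variation from mouse to mouse. Intervals of levels and of their ratios treat each UMI as independent. They therefore also leave out the variation from cell to cell and are too narrow where few cells hold most UMIs.

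The cells chosen by Cd3 or NK receptors also carried genes of lymphocytes that the rule had not used. Thy1, a surface protein of T cells, was found in 508 of 700 cells of P50_Depil5D and 461 of 639 of P50. Lck, the kinase that starts T cell receptor signalling, was found in 314 and 258 cells. Markers of other cells were present too. More than 10 UMIs of the MHC class II genes H2-Aa, H2-Ab1 and Cd74 were held by 29 lymphoid cells (4.14%) of P50_Depil5D and 32 (5.01%) of P50. The 11 dendritic cell markers summed to 6261 CPM (UMIs per 1000000 UMIs of the lymphoid cells) in P50_Depil5D and 10027 CPM in P50, with 4 of them lower past 1.5-fold and 1 higher. The libraries of other ages held other amounts: 265 lymphoid cells (47.2%) of P45, 4.17% of P63 and 14.9% of P80 had more than 10 class II UMIs, and their dendritic cell markers summed to 38437, 4329 and 19561 CPM. The 11 macrophage or monocyte markers summed to 572 and 551 CPM, with the C1q genes at 0 by the rule. The 11 keratinocyte markers summed to 359 and 478 CPM, and the 7 fibroblast markers to 22.4 and 180 CPM. B cell, mast cell, neutrophil and melanocyte or Schwann cell markers each summed to under 10 CPM in both libraries, with Ms4a1, Cpa3 and Csf3r at 0 in both.

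Lymphoid cells made up 53.3% of kept cells in P50_Depil5D (exact 95% interval 50.5 to 56.0%) and 50.6% in P50 (47.8 to 53.4%). The ratio of the shares was 1.05 (0.94 to 1.17), so no difference was detectable at this depth. From shares of sorted cells, fewer lymphocytes and more of another leukocyte cannot be told apart. The lymphoid share was 26.4% in P45, 37.9% in P63 and 36.1% in P80.

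The lymphoid cells were divided by gates on their UMIs, each cell falling in the first it met: no Cd3 UMI (NK receptor gate), Foxp3, Cd8a or Cd8b1, Cd4, genes of interleukin-17-making cells (type 17 gate), and at least 3 UMIs of Ctla2a, a cathepsin inhibitor abundant in DETC. The Ctla2a gate held most lymphoid cells in both libraries, 439 cells or 62.7% in P50_Depil5D and 408 cells or 63.8% in P50. Their ratio was 0.98 (0.86 to 1.13), and the gate held between 19.4 and 26.9% of the lymphoid cells of P45, P63 and P80. The pair thus shared a Ctla2a-rich lymphoid compartment that stood apart from the other 3 libraries. Cells with Cd3 outside every other gate made up 18.3% and 21.4% (ratio 0.85, 0.66 to 1.09).

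**Figure D1:**
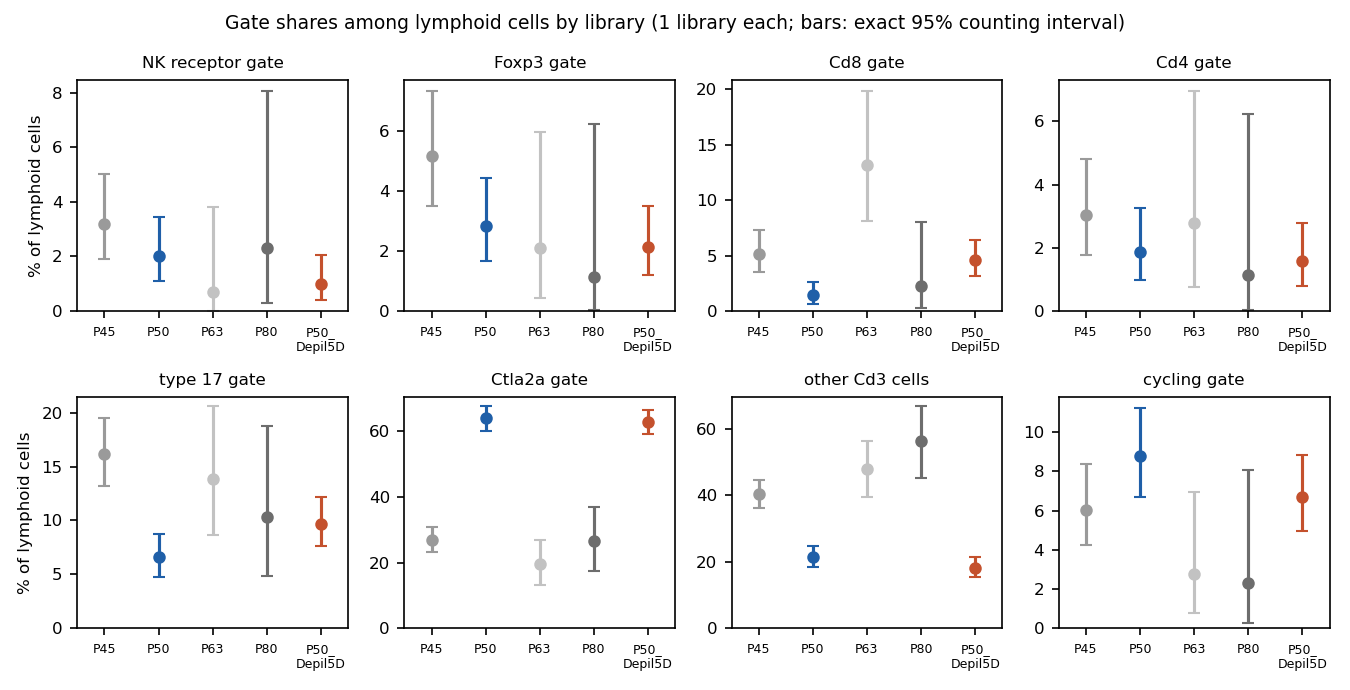
Share of lymphoid cells in each gate (y axis, percent) in the 5 libraries (x axis), with exact 95% counting intervals as bars and 1 library per point. The Cd8 gate held 4.57% of the cells of P50_Depil5D and 1.41% of those of P50, and the Ctla2a gate 62.7% and 63.8%.

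The share that differed most between depilated and undepilated skin was that of cells with UMIs of Cd8a or Cd8b1, the chains of the CD8 co-receptor of cytotoxic T cells. The Cd8 gate held 32 of 700 cells, or 4.57% (3.15 to 6.39%), in P50_Depil5D and 9 of 639, or 1.41% (0.65 to 2.66%), in P50. Its ratio was 3.25 (1.51 to 7.73). The undepilated libraries of other ages held 5.16% in P45, 13.2% in P63 and 2.30% in P80, so P50 was the lowest of the 5 and P50_Depil5D lay inside the range of the undepilated ages. With each cell reduced at random to 800 UMIs, the gate held 29 and 5 cells. In a separate draw of 800 UMIs a cell, Cd8a or Cd8b1 was found in 23 lymphoid cells (3.29%) of P50_Depil5D and 4 (0.626%) of P50, but in none of 423 and 409 MHC class II cells outside the lymphoid gate. A count of 0 there allows a share of up to 0.709% and 0.733% (3 counts of the total), and the exact upper limits were 0.868% and 0.898%. The lymphoid share of P50 lay below these limits and that of P50_Depil5D above them. The part of free RNA was not tested. The MHC class II cells had median UMIs of 2109 and 2295 before the reduction.

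Cd8a, on chromosome 6 (71373427 to 71379173, plus strand, mm10), had 31 UMIs in 19 cells of P50_Depil5D and 4 UMIs in 4 cells of P50. Cd8b1, its neighbour (71322788 to 71337494), had 53 UMIs in 29 cells and 8 UMIs in 6 cells. Their levels were 28.9 against 4.03 CPM for Cd8a (ratio 7.17, 2.54 to 28.0) and 49.4 against 8.06 CPM for Cd8b1 (ratio 6.13, 2.90 to 14.9). Most Cd8 gate cells lay in a CD8 or conventional CD4 T cell-like cluster, which held 25 of the 32 Cd8 gate cells of P50_Depil5D and 5 of the 9 of P50. Cd8a and Cd8b1 were open to the clustering and were among the markers that named this cluster. The overlap was therefore partly set in advance and is no independent check. Cd4, the co-receptor of helper T cells, showed no difference like that of Cd8a and Cd8b1, with 15 UMIs in 13 cells and 16 UMIs in 16 cells, and the Cd4 gate held 11 and 12 cells. Of 20 genes listed for conventional CD4 and CD8 T cells, the 5 abundant enough to compare did not follow Cd8a and Cd8b1. All 5 had ratios below 1, and the other members were too low to compare. The 11 markers of these cells, Cd8a and Cd8b1 among them, summed to 537 CPM in P50_Depil5D and 483 CPM in P50.

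The type 17 gate used genes such as Cd163l1, 5830411N06Rik, Il23r, Blk, Il17a and Il17f, which are typical of interleukin-17-making γδ T cells. It held 68 cells or 9.71% in P50_Depil5D and 42 cells or 6.57% in P50, a ratio of 1.48 whose interval included 1 (0.99 to 2.23). P45, P63 and P80 held 10.3 to 16.2%. When the cells were clustered (described further on), the γδT17-like cluster held 20 of these cells in P50_Depil5D and 25 in P50. Cluster 0 held 19 against 2, and cluster 1 held 13 against 5, so the larger number in P50_Depil5D lay outside the γδT17-like cluster. Cd163l1, a scavenger receptor of γδ T cells on chromosome 7 (140218267 to 140231145), had 24 UMIs in 18 cells of cluster 0 in P50_Depil5D and 1 UMI in P50. In the γδT17-like cluster the order was the other way, with 15 UMIs in 7 cells against 32 UMIs in 13 cells. Over all lymphoid cells Cd163l1 stood at 66.2 and 49.3 CPM (ratio 1.34, 0.92 to 1.97).

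The cytokines themselves were sparse. Il17a had 13 UMIs in 6 cells of P50_Depil5D and 5 UMIs in 3 cells of P50. Il17f had 15 UMIs in 7 cells, 7 of them in 1 cell, and none in P50, so that against a floor of 3 counts in P50 it was at least 4.63-fold higher. The exact interval of its ratio, which also covers the counting error of the 15 UMIs, had a lower limit of 3.32. Each cytokine thus came from 7 cells or fewer in either library, and P45 and P63 held more Il17f than P50_Depil5D did, at 36.7 and 58.0 CPM.

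Lymphoid cells without a Cd3 UMI, which the rule admitted by Ncr1 or Klre1, numbered 7 (1%) in P50_Depil5D and 13 (2.03%) in P50, a ratio of 0.49 with a wide interval (0.17 to 1.33). Ncr1, the NK activating receptor NKp46, had 13 and 10 UMIs. Klre1, an NK lectin-like receptor that is also part of the rule, had 9 UMIs in 8 cells against 34 UMIs in 24 cells. Its ratio was 0.25 (0.10 to 0.52), and in the NK or ILC1-like cluster it was found in 3 of 31 and 9 of 43 cells. The Foxp3 gate of regulatory T cells held 15 cells (2.14%) and 18 cells (2.82%), a ratio of 0.76 (0.36 to 1.60). Cells with at least 2 UMIs of mitotic genes (Mki67, Top2a, Cdk1, Ccnb1, Ccnb2, Birc5) numbered 47 (6.71%) and 56 (8.76%), a ratio of 0.77 (0.51 to 1.15), and 30 and 28 after reduction to 800 UMIs. For these 3 gates the intervals of the ratio included 1.

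When the 1339 cells were clustered together, 11 clusters formed, all with cells of both libraries. Cluster 0 held 240 cells (34.3%) of P50_Depil5D and 174 (27.2%) of P50, a ratio of 1.26 (1.03 to 1.54). Cluster 1, led by Spry4, Tnfsf11 and Il13, held 139 and 119 cells, and cluster 4 held 42 and 52. Clusters 0, 1 and 4 consisted mainly of Ctla2a gate cells (384 of 414, 234 of 258 and 75 of 94). Cluster 0 had 6 raised DETC markers, Areg among them, but none of its 10 leading genes was one. Clusters 0, 1 and 4 are therefore given no cell type name, and values in them are given cluster by cluster. Cluster 0 held 215 Ctla2a gate cells of P50_Depil5D and 169 of P50, whereas cluster 4 held 34 and 41 and cycling cluster 6 held 31 and 45. The Ctla2a gate as a whole had a ratio of 0.98. No share of cluster 0 is given under other clustering settings. How far its ratio depends on where the cluster borders fell was not tested.

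The clusters of other types were smaller. A CD8 or conventional CD4 T cell-like cluster held 69 and 52 cells (ratio 1.21, 0.83 to 1.77). The regulatory T cell-like cluster held 56 and 61 (0.84, 0.57 to 1.22), the γδT17-like cluster 43 and 50 (0.79, 0.51 to 1.20), and the NK or ILC1-like cluster 31 and 43 (0.66, 0.40 to 1.07). Of the cells in the NK or ILC1-like cluster, only 5 and 10 lay in the NK receptor gate. Cd3g was found in 24 of its 31 and 30 of its 43 cells. Its name therefore does not set NK cells or ILC1 apart from T cells that carry NK receptors. Both cycling clusters together held 45 and 53 cells (0.78, 0.51 to 1.18). A dendritic cell-like cluster of 28 and 32 cells and a keratinocyte-like cluster of 7 and 3 also carried Cd3 or NK receptor UMIs, and no doublet caller was run. None of these intervals left out 1. Clustering with the cell cycle genes left out gave 32 and 47 cells for the NK or ILC1-like class (0.62, 0.38 to 0.99) and 37 and 55 for the cycling class (0.61, 0.39 to 0.95), where the intervals did leave out 1. Clustering without the gate genes and without the genes past 1.5-fold gave 67 and 52 cells for the CD8 or CD4 T cell-like, 57 and 63 for the regulatory, 44 and 48 for the γδT17-like, 30 and 41 for the NK or ILC1-like, 47 and 56 for the cycling and 27 and 34 for the dendritic cell-like class.

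**Figure D2:**
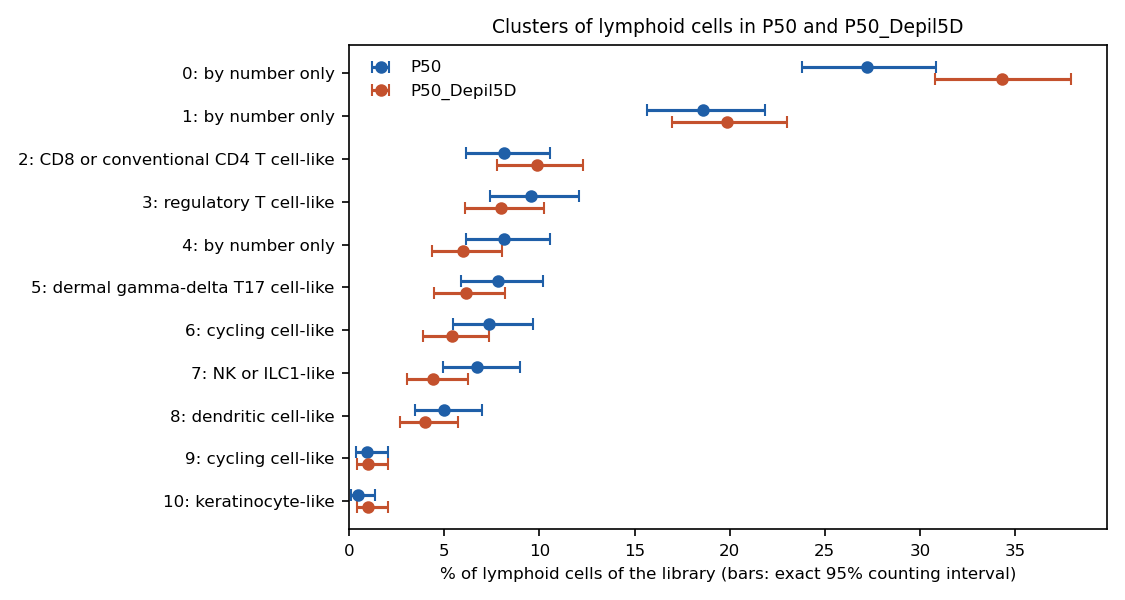
Share of the lymphoid cells of each library (x axis, percent) in each of 11 clusters (y axis), with exact 95% counting intervals as bars. Cluster 0 held 34.3% of the cells of P50_Depil5D and 27.2% of those of P50, with intervals that only just overlap, and the intervals of the other 10 clusters overlap more.

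Over all lymphoid cells the transcriptomes of the pair were close. Of 1295 genes with a mean of at least 100 CPM, 21 (1.62%) were at least 1.5-fold higher in P50_Depil5D and 21 (1.62%) at least 1.5-fold lower, on CPM with 10 added. The median log2 ratio was 0.00, and 96.8% of the genes lay within 1.5-fold. Calling them in either direction gave 3.24% for this pair. The same rule gave 36% of 1222 genes between P45 and P50, 35.6% of 1304 between P63 and P50 and 39% of 1291 between P80 and P50, comparisons that all share the P50 library, with fewer lymphoid cells at P63 and P80, more UMIs per cell at P45 and more class II-rich cells at P45 and P80. With the cells over 10 class II UMIs left out of every library, a setting added after the data had been seen, the rule gave 29.7% of 1267 genes for P45, 37.4% of 1301 for P63 and 39% of 1334 for P80, beside 2.95% of 1321 for P50_Depil5D. Scaling by TMM in place of the total changed the split of genes past the fold from 21 higher and 21 lower to 35 higher and 18 lower.

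**Figure D3:**
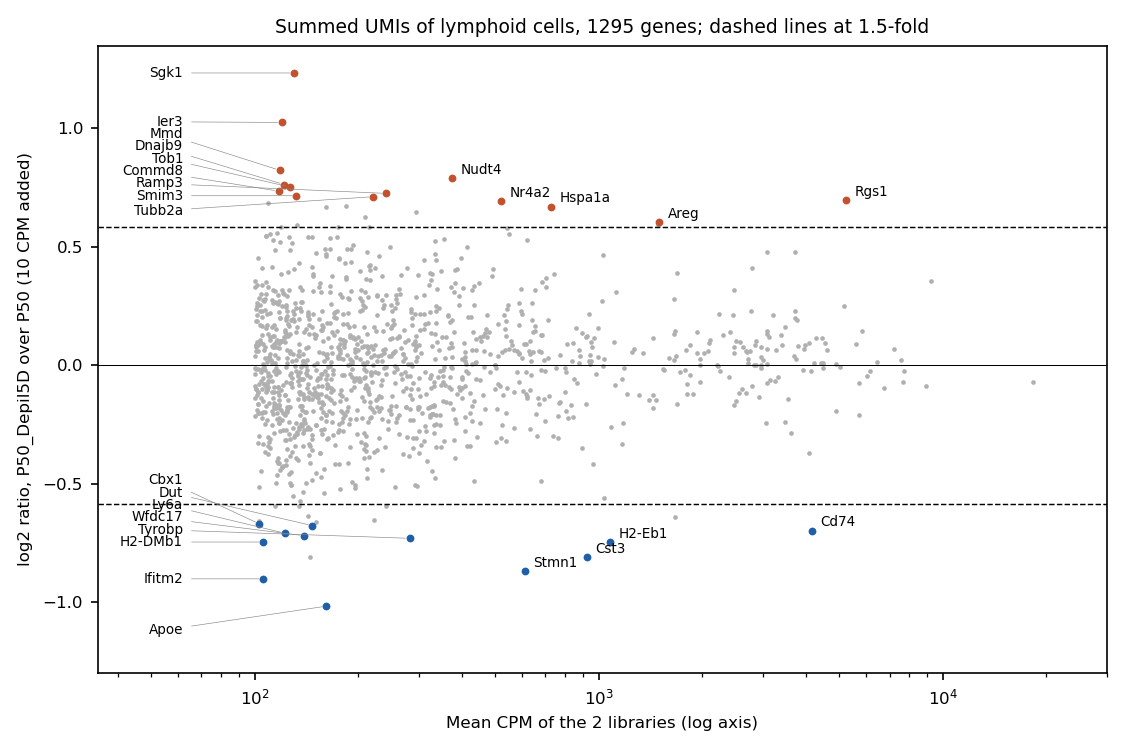
Log2 ratio of CPM with 10 added, P50_Depil5D over P50 (y axis), against the mean CPM of the pair (x axis, log scale) for the 1295 genes compared in lymphoid cells. Most points lie near 0, between the dashed lines of 1.5-fold, and the named genes past the lines include Sgk1 at 1.23, Rgs1 at 0.70 and Apoe at -1.02.

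The 12 genes with the largest ratios in each direction were named. The higher ones included several that lymphocytes are known to switch on when stimulated. Whether their higher level arose in the skin or during the digestion and sorting that both libraries went through was not tested. Sgk1, a kinase induced by serum and glucocorticoids (chromosome 10, 21882184 to 21999903), showed the largest ratio. It had 200 UMIs in 133 cells of P50_Depil5D and 73 UMIs in 59 cells of P50, or 186 CPM (162 to 214) against 73.5 CPM (57.6 to 92.4), a ratio of 2.54 (1.93 to 3.36). P45, P63 and P80 stood at 47.2, 66.9 and 50.2 CPM, so the depilated library was above all 4 others. Ier3, an immediate early gene that guards against cell death (chromosome 17, 35821684 to 35822923), had 164 CPM against 75.5 CPM (ratio 2.17, 1.65 to 2.89), beside 120, 53.5 and 111 CPM in P45, P63 and P80. For Ier3 the margin over P45 and P80 was smaller than over P50.

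Rgs1, which dampens signalling by G protein-coupled receptors such as those for chemokines, was the most abundant of the genes past the fold (chromosome 1, 144242296 to 144249242). It had 6948 UMIs in 577 cells of P50_Depil5D and 3967 UMIs in 491 cells of P50, or 6478 against 3995 CPM, a ratio of 1.62 (1.56 to 1.69). P45, P63 and P80 had 751, 1642 and 1467 CPM. Both libraries of the pair were above the other ages for Rgs1, and the depilated one was the highest. Nr4a2, an orphan nuclear receptor induced by antigen receptor signals (chromosome 2, 57106830 to 57124003), stood at 645 against 395 CPM (ratio 1.63, 1.44 to 1.85), beside 219, 223 and 512 CPM. It was found in 318 cells (45.4%) and 216 cells (33.8%).

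Areg encodes amphiregulin, an epidermal growth factor receptor ligand that lymphocytes release in tissue repair (chromosome 5, 91139599 to 91148432). It had 1942 UMIs in 296 cells of P50_Depil5D and 1180 UMIs in 236 cells of P50, 1811 against 1188 CPM, a ratio of 1.52 (1.42 to 1.64). The other ages were far lower, at 133, 143 and 402 CPM. At 800 UMIs a cell, Areg was found in 264 of 700 and 194 of 639 lymphoid cells, and in 4 of 423 and 7 of 409 MHC class II cells. Areg was thus far more frequent in lymphoid cells than in those cells, and its difference between the libraries sat close to the 1.5-fold line.

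The other genes named as higher had less familiar roles in lymphocytes. Nudt4, a hydrolase of inositol pyrophosphates, stood at 477 against 272 CPM (ratio 1.76, 1.51 to 2.04). Mmd, a membrane protein, stood at 154 against 82.6 CPM (1.86), and Dnajb9, a co-chaperone of the endoplasmic reticulum, at 156 against 87.6 CPM (1.78). Tob1, an antiproliferative factor of T cells, stood at 161 against 91.6 CPM and was higher still, at 211 CPM, in P80. Commd8 (149 against 85.6 CPM), Ramp3, a partner of the adrenomedullin receptor (303 against 179 CPM), Smim3 (167 against 97.7 CPM) and the β-tubulin Tubb2a (277 against 165 CPM) had ratios between 1.68 and 1.74. Tubb2a has close relatives among the tubulins, and reads of such genes may be shared. Among the 21 higher genes past the fold, chosen by their level against P50, 20 were above all 4 undepilated libraries, beside 359 of all 1295 genes compared, and Tob1 was the exception.

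**Figure D4:**
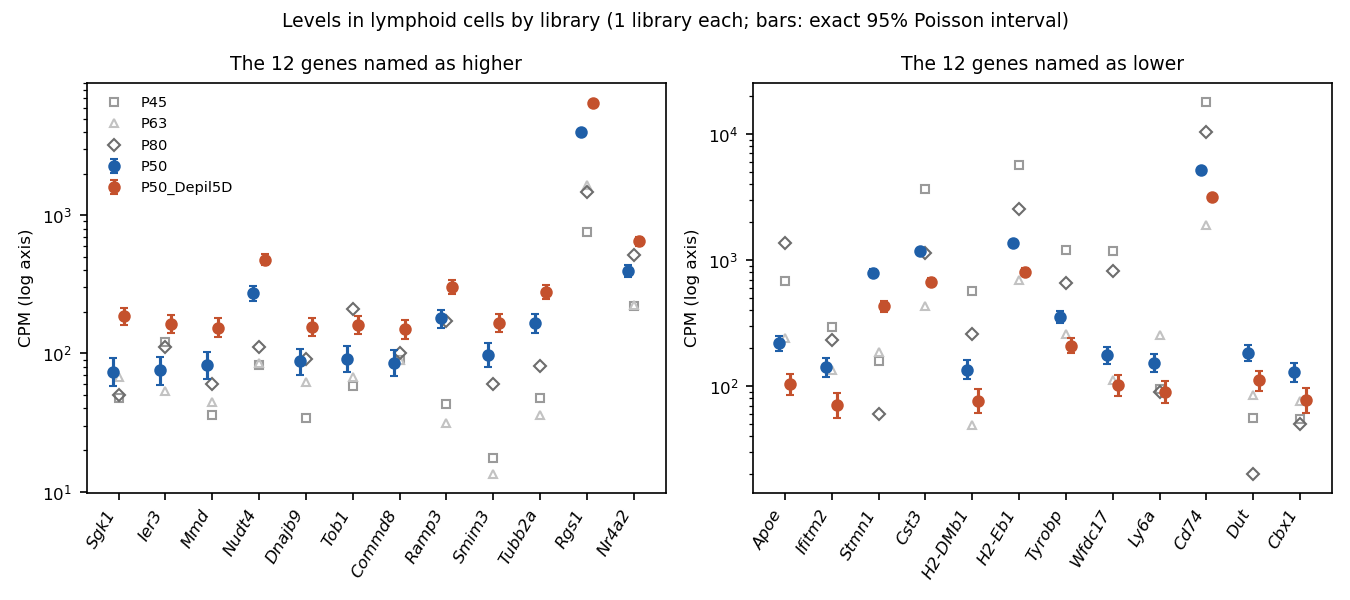
CPM on a log axis (y) of the 12 genes named as higher and the 12 named as lower (x) in lymphoid cells of the 5 libraries, with exact 95% Poisson intervals for P50 and P50_Depil5D. For Rgs1 and Sgk1 the depilated library is the highest of the 5, and for Cd74 both libraries of the pair lie below P45 and P80.

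The same genes were higher in the Ctla2a-rich cells alone. Within the Ctla2a gate, 1342 genes were compared, of which 42 (3.13%) were higher and 28 (2.09%) lower past 1.5-fold, and all 12 genes named as higher were again past the fold. That is a description and not an independent check, since the gate supplied most of the UMIs. Sgk1 had 242 CPM in the gate cells of P50_Depil5D and 98.0 CPM in those of P50, beside 77.2 CPM in P45, 222 CPM in P63 (9 UMIs) and 87.0 CPM in P80 (2 UMIs). Areg had 2678 and 1707 CPM, beside 297, 346 and 783 CPM, and Rgs1 8701 and 5720 CPM, beside 1443, 4895 and 3742 CPM. Areg and Rgs1 thus stayed highest in the depilated library among cells passing the same gate. The gate did not hold like cells in all libraries: Cd74 stood at 2183 and 2770 CPM in the gate cells of the pair but at 11811 CPM in P45 and 5483 CPM in P80, and Cd3g at 7542 and 8519 CPM beside 2929 and 4961 CPM. Without the cells over 10 class II UMIs, Areg had 2799 and 1803 CPM in the pair beside 355, 359 and 885 CPM, and Rgs1 9041 and 5951 CPM beside 1840, 4980.5 and 4181 CPM. The order was the same, while Cd3g in P45 was still lower, at 3271 CPM against 7858 and 8958 CPM. Nr4a2 was not highest in the depilated library over all gate cells, at 864 and 537 CPM beside 1001 CPM in P80 (23 UMIs). Without the cells over 10 class II UMIs it had 889 and 549 CPM beside 836 CPM in P80 (17 UMIs). Over the gate, 30 of the 42 higher genes lay above all undepilated libraries, beside 294 of 1342. The 42 had been chosen by their level against P50, 1 of those libraries, and the 1342 had not, so the counts are unlike. The gate held only 28 cells in P63 and 23 in P80.

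The named genes were also followed in single clusters. In cluster 0, Rgs1 stood at 9523 against 6902 CPM and Sgk1 at 235 against 98.6 CPM. In cluster 1, Rgs1 stood at 12710 against 7543 CPM, Sgk1 at 395 against 171 CPM, and Nr4a2 had 237 against 96 UMIs (ratio 2.06, 1.62 to 2.64). All 12 named genes were higher in both clusters, 6 of them past 1.5-fold in cluster 0 and 11 in cluster 1, where 4.73% and 9.3% of all genes compared were higher by that much. As for the gate, the genes had been chosen on a sum that these clusters mostly make up. In regulatory T cell-like cells Rgs1 had 614 against 638 CPM, and 6 of the 12 genes were higher. All genes compared in those cells had a median log2 ratio of 0.001, so the count of 6 shows no shift of the named genes there. Sgk1 had only 8 and 5 UMIs in them. In the γδT17-like cluster Rgs1 had 1473 against 533 CPM, and in the CD8 or CD4 T cell-like cluster 1721 against 836 CPM, where Sgk1 had only 5 and 1 UMIs. Areg was most abundant in clusters 0 and 1, at 3425 against 2550 CPM and 2874 against 1919 CPM. The third cluster of mainly Ctla2a gate cells, cluster 4, had 1 UMI of Areg in 42 cells and none in 52. Areg stood at 624 against 756 CPM in regulatory T cell-like cells and at 1913 against 1903 CPM in the cycling cluster 6. The difference between clusters was not tested. Outside the lymphoid gate, in 27 and 27 cells with Krt5 and Krt14, 7 of the 12 genes were higher and 1 past the fold. No share of all genes is given for these few cells, so nothing is concluded from that count. In the 423 and 409 MHC class II cells, 9 of the 12 were higher and 2 past the fold, with a median log2 ratio of 0.19. Of all genes compared there, 0.737% were higher past the fold, and their median log2 ratio was -0.08.

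Most heat shock genes also had ratios above 1. Hspa1a, an inducible HSP70 chaperone (chromosome 17, 34969190 to 34972156), had 897 against 560 CPM, a ratio of 1.60 (1.44 to 1.78), but P45, P63 and P80 had 684, 808 and 794 CPM, close to the depilated level. Its near-identical neighbour Hspa1b had 201 and 186 UMIs, and the counting may split reads between them. In cluster 1, Hspa1a had 126 UMIs in 28 cells of P50_Depil5D and 11 UMIs in 7 cells of P50, and in cluster 0 it had 88 and 19. Of 10 heat shock and stress genes compared, 1 was past 1.5-fold and 9 were above 0, with a median log2 ratio of 0.28 beside 0.00 for all genes. Dnajb1 (ratio 1.43) and Dnaja1 (1.28), partners of HSP70, and Txnip (1.34), a thioredoxin-binding protein, came next.

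Promoters of 3 of the higher genes are shown because they hold the cAMP response element or its core, which CREB and ATF factors bind. Each window runs from 250 bases before to 50 after the annotated start, in RefSeq on GRCm38.p6, 5′ to 3′ on the gene's strand, in the order Areg (chr5:91139349-91139648, plus), Tubb2a (chr13:34077959-34078258, minus) and Nr4a2 (chr2:57123954-57124253, minus). Capitals mark the whole element TGACGTCA in Areg and Tubb2a, and in Nr4a2 its core TGACG on either strand, which reads CGTCA on the other.
Areg: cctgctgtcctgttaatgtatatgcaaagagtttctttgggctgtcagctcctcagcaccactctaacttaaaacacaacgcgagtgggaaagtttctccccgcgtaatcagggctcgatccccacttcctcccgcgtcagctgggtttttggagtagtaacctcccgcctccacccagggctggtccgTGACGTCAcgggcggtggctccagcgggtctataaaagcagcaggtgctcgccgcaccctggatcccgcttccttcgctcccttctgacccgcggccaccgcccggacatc
Tubb2a: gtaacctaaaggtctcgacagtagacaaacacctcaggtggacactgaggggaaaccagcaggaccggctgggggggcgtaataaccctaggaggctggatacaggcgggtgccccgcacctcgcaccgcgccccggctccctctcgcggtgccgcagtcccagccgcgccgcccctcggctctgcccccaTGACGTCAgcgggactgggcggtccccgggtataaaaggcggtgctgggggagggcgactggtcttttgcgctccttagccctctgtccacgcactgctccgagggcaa
Nr4a2: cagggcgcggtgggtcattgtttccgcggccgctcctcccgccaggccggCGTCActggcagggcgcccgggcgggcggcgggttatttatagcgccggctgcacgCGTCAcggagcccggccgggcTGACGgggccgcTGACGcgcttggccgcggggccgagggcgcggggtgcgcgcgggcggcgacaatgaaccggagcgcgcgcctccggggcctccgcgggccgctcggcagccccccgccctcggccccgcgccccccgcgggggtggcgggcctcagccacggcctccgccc
Areg and Tubb2a each hold the whole element once, and Nr4a2 holds the core 4 times.

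Of the 21 higher genes, 17 had a window in the table, and 2 of these (11.8%) held TGACGTCA. The element was in 54 of 1002 compared genes with a window (5.39%) and in 588 of all 32851 windows (1.79%). A gene counted when any of its windows held the motif, and some genes, such as Sgk1, had several windows. Shares of genes and shares of all windows are therefore unlike measures. The core TGACG was counted on either strand and also inside the whole element. It was in 10 of 17 higher genes with a window (58.8%) and 1 of 14 lower genes (7.14%). Of compared genes, 427 of 1002 (42.6%) held it, and of all windows 20.8%. The AP-1 element TGANTCA was in 1 of 17, 2 of 14, 6.39% and 7.81%. The genes and motifs were picked after the values had been seen. A match is a description of these letters and not a binding site.

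The genes that were lower in P50_Depil5D belong to unlike sets. The first were genes typical of antigen-presenting cells: Cd74, the MHC class II invariant chain (3404 against 5116 UMIs, 3174 against 5152 CPM, ratio 0.62, 0.59 to 0.64), the class II chain H2-Eb1 (805 against 1356 CPM), the class II chaperone H2-DMb1 (76.5 against 135 CPM), the protease inhibitor Cst3 (670 against 1181 CPM) and Wfdc17 (103 against 175 CPM). The dendritic cell-like cluster held 3200 of the 3404 Cd74 UMIs of P50_Depil5D and 4995 of the 5116 of P50, although it was 4% and 5.01% of the cells, and within it Cd74 stood at 41813 and 43996 CPM. Without it and the keratinocyte-like cluster the log2 ratio of Cd74 went from -0.70 to 0.55, that of H2-Eb1 from -0.75 to 0.24, that of H2-DMb1 from -0.75 to 0.26 and that of Cst3 from -0.81 to -0.13. The lower class II level over all lymphoid cells was thus not found in the remaining cells. Apoe, a lipid carrier, was also lower (103 against 220 CPM). It was richest in keratinocyte-like cluster 10, at 5585 and 10855 CPM, and in the cells with Krt5 and Krt14 outside the lymphoid gate, at 6083 and 8033 CPM. Of the Apoe UMIs of P50, 118 of 218 came from 1 cell, and without the cell richest in Apoe in each library its log2 ratio was -0.34 in place of -1.02. Cst3 had 284 of its 1173 UMIs of P50 in 1 cell.

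**Figure D5:**
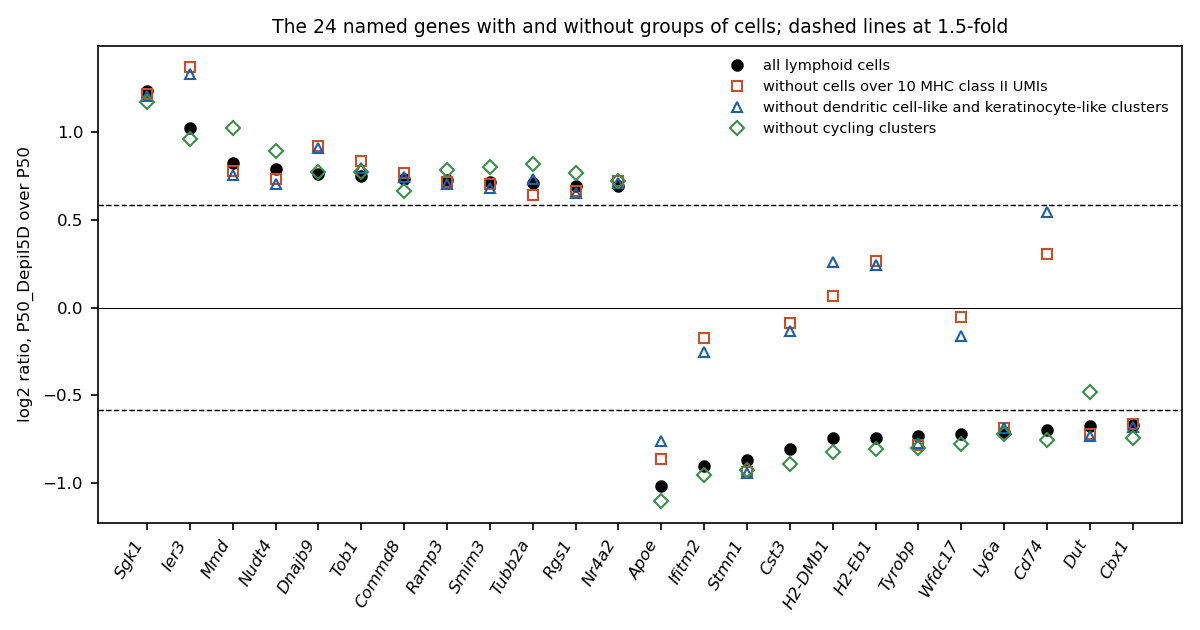
Log2 ratio, P50_Depil5D over P50 (y axis), of the 24 named genes (x axis) in all lymphoid cells and after leaving out 3 groups of cells. The 12 higher genes keep their place above 0, whereas Cd74, H2-Eb1 and H2-DMb1 move from below -0.60 to above 0 without the class II-rich cells.

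Genes of the cell cycle and chromatin were also among those named as lower. Stmn1, a microtubule regulator abundant in cycling lymphocytes (chromosome 4, 134468320 to 134473843), had 460 UMIs in 78 cells of P50_Depil5D and 785 UMIs in 108 cells of P50, or 429 against 791 CPM, a ratio of 0.54 (0.48 to 0.61). P45, P63 and P80 had 160, 187 and 60.3 CPM, so both libraries of the pair were above the other ages and P50 was the highest. Dut, which keeps uracil out of DNA, stood at 111 against 183 CPM (0.61, 0.48 to 0.77), and the heterochromatin protein Cbx1 at 77.4 against 129 CPM (0.60, 0.45 to 0.80). Inside the cycling cluster 6, Stmn1 had 3301 against 4697 CPM, and in the Ctla2a gate 516 against 1052 CPM (0.49, 0.43 to 0.56). Cbx1 was found in 72 and 109 cells, more than the 45 and 53 of the cycling clusters. Without the cycling clusters Stmn1 and Cbx1 stayed past the fold, at -0.93 and -0.74 in log2, and Dut did not, at -0.48.

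Of the 6 genes of the cell cycle list that were abundant enough to compare, 1 was lower past 1.5-fold and none higher, and the median log2 ratio was -0.26. The other members were too low to be compared, and those given here were chosen after their values had been seen. Among genes of DNA replication, Rrm2, which makes deoxynucleotides, had 54 UMIs in P50_Depil5D and 107 in P50 (ratio 0.47, 0.33 to 0.65). The replication helicase genes Mcm3, Mcm5 and Mcm6 had 17, 18 and 24 UMIs against 30, 32 and 43. Pcna, the replication clamp, had 105 and 87 UMIs, and Rrm1, the partner of Rrm2, 60 and 44, and for both the interval of the ratio included 1. Of the genes of dividing cells in the mitotic gate, Mki67 had 33 UMIs against 54 (ratio 0.57, 0.36 to 0.89), whereas Birc5 had 80 against 77 and Cdk1 43 against 33, with intervals that included 1. The list thus held members on both sides, and no difference between replication and mitosis was tested.

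The remaining genes named as lower were Ifitm2, an interferon-induced membrane protein (70.9 against 141 CPM), Tyrobp, an adaptor of activating receptors in NK and myeloid cells (210 against 355 CPM), and Ly6a, the stem cell antigen Sca-1 of activated T cells (90.4 against 154 CPM). Tyrobp stayed past the fold without the class II-rich cells, at -0.79 in log2 against -0.73. It did not with 2 or more Cd3 or NK receptor UMIs required of each cell (-0.28) or with cells reduced to 800 (-0.32) or 500 UMIs (-0.29). It was lower in the NK or ILC1-like cluster, at 98 UMIs in 31 cells against 172 in 43 (CPM ratio 0.67, 0.51 to 0.86). Ifitm2 went from -0.90 to -0.25 in log2 without the dendritic cell-like and keratinocyte-like clusters. Its relative Ifitm3 had 8 UMIs against 67, of which 62 lay in the dendritic cell-like cluster of P50. Of the 21 lower genes, 6 were below all 4 undepilated libraries, beside 106 of 1295 genes compared.

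MHC class I genes, which most cells use to present internal peptides, had ratios below 1 without passing 1.5-fold. All 6 members compared were below 0, with a median log2 ratio of -0.31 beside 0.00 for all genes. B2m, the light chain, stood at 3573 against 4615 CPM (ratio 0.77, 0.74 to 0.81), H2-Q7 at 240 against 344 CPM (0.70), Psmb8, an immunoproteasome subunit, at 176 against 249 CPM (0.71), and H2-K1 at 984 against 1180 CPM (0.83). H2-Q7 belongs to a family of near-identical genes, and its counts are uncertain. In the Ctla2a gate B2m had 3156 against 4335 CPM (0.73, 0.69 to 0.77), and in cycling cluster 6 it had 4630.5 against 5155 CPM (0.90, 0.80 to 1.01). Of 5 interferon-stimulated genes compared, all were below 0 and 2 (Ifitm2 and Ly6a) were lower past 1.5-fold, with a median of -0.16, while Isg15 stood at 206 and 221 CPM. Among them Bst2, at -0.02, lay within the shift of 0.05 in the median of all genes that TMM scaling gave. P45, P63 and P80 had B2m at 2727, 3258 and 2341 CPM, so P50 was the highest of the 5.

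Genes of the T cell receptor complex were close between the libraries. None of the 16 members compared was past 1.5-fold, with a median log2 ratio of 0.02. Cd3d and Cd3e, which the rule used, stood at 1965 against 1894 CPM and 2733 against 2686 CPM. Lck had 428 against 358 CPM (ratio 1.20, 1.04 to 1.38), and the adaptor Lat 563 against 506 CPM. The DETC list had 1 of 16 higher (Areg) and 1 lower (Tyrobp), median -0.05, and its Ctla2a, Xcl1 and Nkg7 stood at 8681 against 9222, 2522 against 2702 and 3080 against 3215 CPM.

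Among markers of activation, 2 of 13 were higher past 1.5-fold (Rgs1, Nr4a2) and 1 lower (Tnfrsf4), with a median of 0.16. Cd69, an early activation and retention receptor, had 257 against 191 CPM (ratio 1.34, 1.11 to 1.63). Tnfrsf4, the co-stimulatory receptor OX40 found mostly in regulatory T cells, had 115 against 187 CPM (0.61, 0.48 to 0.77), and Ctla4, an inhibitory receptor, 94.2 against 137 CPM (0.69). Havcr2, the inhibitory receptor TIM-3, was too low to enter the comparison but had 60 UMIs in 51 cells against 15 UMIs in 14 cells (ratio 3.70, 2.08 to 7.02). In P50_Depil5D it lay mostly in cluster 0, with 37 UMIs in 32 cells. In P50 cluster 0 held 6 of the 15 UMIs, in 5 cells, and the dendritic cell-like cluster held 4. At 800 UMIs a cell Havcr2 was found in 30 of 700 lymphoid cells against 4 of 639, and in 6 of 423 and 5 of 409 MHC class II cells, so P50 lay at or below the level of those cells and P50_Depil5D above it.

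Immediate early and AP-1 genes had 1 of 21 past the fold (Ier3), a median of 0.13 and 14 members above 0. Junb, a Jun family factor, stood at 3180 against 2388 CPM (ratio 1.33, 1.26 to 1.40), Klf6 at 732 against 504 CPM (1.45) and Ppp1r15a, a regulator of the stress response, at 360 against 262 CPM (1.37). Dusp1, a phosphatase of the same kind of response, stood at 765 against 827 CPM. The levels of Junb in P63 and P80 were 3213 and 3205 CPM, close to that of the depilated library.

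Of the regulatory T cell list 1 of 9 was past 1.5-fold, lower (Tnfrsf4), with a median of 0.03. Foxp3, the master factor, had 24 UMIs in 15 cells and 20 UMIs in 18 cells, and the Notch ligand Jag1 7 and 6 UMIs. Il10, an immunosuppressive cytokine, had 5 UMIs in 4 cells of the regulatory T cell-like cluster of P50_Depil5D and 19 in 10 cells of that of P50, 9 of them in 1 cell. The γδT17 list had 1 of 8 lower past 1.5-fold, the membrane channel protein Tmem176a (110 against 176 CPM, 0.62, 0.49 to 0.79), and a median of 0.03. The conventional CD4 and CD8 T cell list had none of 5 past the fold, all 5 below 0 and a median of -0.14. Its members Cd8a and Cd8b1 were too low to be compared. Ccl5, a chemokine of memory CD8 T and NK cells, stood at 253 against 324 CPM, with 66 of the 322 UMIs of P50 in 1 cell.

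In the NK and ILC1 list 1 of 4 was past the fold, Klrc1, the inhibitory receptor NKG2A, at 161 against 104 CPM (ratio 1.55). P45, P63 and P80 had 36.7, 40.2 and 10.0 CPM of Klrc1. Most Klrc1 UMIs lay in Ctla2a gate cells, 132 of 173 in P50_Depil5D and 93 of 103 in P50, at 201 against 152 CPM there. None of 6 cytotoxic granule genes was past the fold (median -0.02), although Serpinb6b, an inhibitor of granule proteases, came close at 260 against 170 CPM (1.53, 1.26 to 1.86). Gzmc, a granzyme, had 880 UMIs against 1090, of which 359 lay in 1 cell of P50. Gzma had no UMI in P50_Depil5D and 24 in 3 cells of P50, 19 of them in 1. Against a floor of 3 counts it was 8.64-fold lower, a value that leaves out the counting error of the 24 UMIs.

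Cytokines and growth factors had 1 of 5 past the fold, Areg, with a median of 0.17. Tnf stood at 198 against 160 CPM (ratio 1.23), and the ILC2 and type 2 list had the same 1 of 5 (Areg), median 0.16, with Il13, a type 2 cytokine, at 89 UMIs in 68 cells and 58 UMIs in 40. Of ligands known to act on hair follicles, 1 of 3 compared was past the fold, again Areg. Oncostatin M (Osm), the factor in the title of the series, had 4 UMIs in P50_Depil5D and 11 in P50 in 4 and 9 cells. Wnt10b, a hair growth ligand, had 12 UMIs in 12 cells against 2 in 2 (ratio 5.55, 1.24 to 51.1), and Fgf7 had none in either.

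Genes of JAK-STAT feedback had none of 7 past 1.5-fold and a median of 0.06. Socs1, a feedback inhibitor, stood at 114 against 91.6 CPM (1.24, 0.94 to 1.65), and Socs3 had 142 and 137 UMIs. None of 9 glycolysis and hypoxia genes was past the fold (median 0.03), nor any of 4 survival genes (median -0.08), 2 chemokines (median -0.22) or 4 chemokine receptors (median 0.08). Ccl1, a chemokine of activated T cells, had 18 UMIs against 97, of which 49 lay in 1 cell. Of the sex-linked genes none was abundant enough to compare.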

How the data were processed

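The deposited files were tables of UMI counts per gene and cell barcode, 1 set per library. Alignment was to mm10 and Seurat was named, per the submitters' processing notes (aligner, counter and cell caller: not given in the sources used here). UMIs of the lymphoid cells were summed per library, scaled to CPM and compared on CPM with 10 added for genes with a mean of at least 100 CPM. A gene past 1.5-fold was counted. With 1 library per group there was no test. The summing and counting were tested on simulated data. Cells were clustered with scanpy 1.11.5 and leidenalg 0.10.2 (2000 variable genes, 20 principal components, resolution 1). A cluster was named from at least 3 raised markers that at least 10% of its cells held. The condition of 10% was added after seeing the data. A cluster stayed unnamed where its first leading gene marked only another class, or its leading genes held more markers of another. Cluster 0 met these rules as DETC-like, but the name was withheld because none of its leading genes was a DETC marker. No doublet caller was run, and doublets may remain. TMM factors came from edgeR 4.0.16. Named were the 12 genes with the largest ratio in each direction whose interval excluded 1, leaving out mitochondrial, ribosomal, haemoglobin and keratin genes and numbered models (1 past the fold), up to 4 genes of each list, the genes of the rule and gates, and the 3 highest and lowest of each subset; a few others were added after their values were seen (Areg and Hspa1a among the genes past the fold, and single members of lists). Some genes of the gates and lists are not reported here. The members, lists and motifs were chosen with earlier results of these data known. Positions are from GENCODE vM21, in which 27645 of 27998 gene rows were found.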

Additional observations from a re-analysis of the deposited data

How the results depend on the processing

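The direction of the lymphoid share and of the NK receptor, Foxp3, Cd8, type 17 and cycling gates held under every alternative run, whereas the Ctla2a gate (0.95 to 1.02) and the Cd4 gate (0.52 to 1.18) crossed 1 under 2 alternatives each. The Cd8 gate ratio ranged from 3.08 to 13.7, the latter with cells thinned to 500 UMIs. The 12 genes named as higher stayed above 0 under all 15 alternatives, with Sgk1 between 1.02 and 1.40, Rgs1 between 0.63 and 0.77 and Tubb2a between 0.22 and 0.88 in log2. The count of genes past the fold depended on the setting: thinning to 500 UMIs gave 40 higher and 36 lower, TMM 35 higher, a total without the 20 most abundant genes 50 and 39, a minimum of 50 CPM 42 and 54, no minimum 263 and 537, and a fold of 2 gave 2 and 1. TMM moved the median log2 ratio to 0.05. Reversed were H2-DMb1 (0.065), H2-Eb1 (0.27) and Cd74 (0.30) without cells over 10 MHC class II UMIs, the same genes (0.26, 0.24 and 0.55) without the dendritic cell-like and keratinocyte-like clusters, and Wfdc17 with thinning to 800 (0.015) or 500 UMIs (0.069); beyond the cells left out, the cause was not tested. Of the other results for single genes, 351 kept their value within the counting error and 46 moved. No paired analysis was possible because each group had 1 library. Depth limits the comparison to abundant genes, since 100 CPM was 107 UMIs in P50_Depil5D and 99.3 in P50.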

Other observations

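Within single subsets some genes stood out that were not past 1.5-fold, or were too low to compare, over all lymphoid cells, named by a fixed rule of size and with counting error only. In the Ctla2a-rich cluster 1, Rassf5, a Ras effector that aids lymphocyte adhesion, had 49 UMIs in 38 cells of P50_Depil5D and 8 UMIs in 8 cells of P50 (ratio of CPM 5.11, 2.40 to 12.5). In the same cluster Cox5a, a subunit of the respiratory chain, had 22 UMIs against 54. In cluster 0, Mt1, a metal-binding metallothionein, had 101 UMIs against 15, 28 of them in 1 cell. In Cd3 cells outside the other gates, Vgll4, a transcription cofactor of the Hippo pathway, had 53 UMIs in 33 cells against 19 UMIs in 17 cells (3.05, 1.78 to 5.45). Ccr7, the lymph node homing receptor, had 34 UMIs against 9 there, with 21 in 1 cell. Other genes named by the rule were past the fold over all lymphoid cells too, such as Ranbp1, a regulator of nuclear transport, with 171 against 274 CPM there and 15 against 43 UMIs in cluster 1, and Gem, a small GTPase, with 1795 against 1187 CPM there and 24 against 4 UMIs in the CD8 or CD4 T cell-like cluster.

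Among genes too low for the main comparison, Gadd45a, a stress-induced growth arrest gene, had 110 UMIs in 89 cells against 51 UMIs in 45 cells, and Bag3, a chaperone partner, had 71 in 64 against 34 in 31. Bcl2l1, which encodes the survival protein BCL-XL, had 35 UMIs in 31 cells against 14 in 13. Gadd45a, Bag3 and Bcl2l1 were picked after their values had been seen and do not stand for the low genes. With no minimum level, more genes were lower than higher past 1.5-fold. Of the survival list, which holds Gadd45a and Bcl2l1, 2 of the 4 members compared were above 0 and 2 below.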
